A study of Mus musculus with 8 samples.

Results

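The 8 genes described here encode enzymes that carry acetyl-CoA through mevalonate to squalene: Acat2, Hmgcs1, Mvk, Pmvk, Mvd, Idi1, Fdps and Fdft1. They were chosen by symbol for their place in the pathway, and all 8 are among the 11756 genes of the deposited table. RNA came from CD11c positive cells of C57BL/6 mouse bone marrow (femur and tibia), obtained by flow cytometric sorting and held in culture; CD11c marks dendritic cells and some macrophages. In 4 libraries the cells had been loaded with acetylated low density lipoprotein (acLDL), whose chemical change makes it a ligand of scavenger receptors. The other 4 libraries were controls. Loading began on culture day 6 and lasted 24 h. The labels do not state how many animals or cultures stood behind the libraries, nor the age or sex of the mice, so each p-value speaks only of the variation among the 8 libraries, part of which may be technical. The comparison asks how lipid loading changes these cells, and here how it changes the genes that let a cell make its own isoprenoids and sterols.

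The mevalonate pathway builds small isoprenoid units from acetyl-CoA and joins them into farnesyl diphosphate. From there the route leads to squalene and the sterols, or to side branches that make protein prenyl groups, dolichol and ubiquinone. The transcription factor SREBP2 drives these genes. Its precursor is held in the endoplasmic reticulum when sterols are plentiful and is cleaved and released when they are scarce. Macrophages and dendritic cells that take up modified lipoprotein free its cholesterol in lysosomes, and the enzymes of the pathway are textbook targets of this feedback.

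The promoters of the members bear on that control, and 6 of the 8 genes had an entry in the RefSeq promoter table (GRCm38.p6). Each window spans 250 bases before and 50 bases after the RefSeq start site. Motifs were searched on both strands: CACCCCA (7 letters) and TCACNCCA (8 letters, N being any base). Both are forms of the sterol element that SREBP proteins bind, and they can overlap each other. Searched too were CCAAT, bound by NF-Y, GGGCGG, bound by Sp1 proteins, and the E-box CACGTG. The 250 bases before the start are shown, 5′ to 3′ on the strand of the gene, for Hmgcs1, whose groups of libraries stood clearly apart, for Mvk and Mvd, further kinase and decarboxylase steps, and for Acat2, whose groups overlapped. Capitals mark sterol element and CCAAT matches.
Hmgcs1 (chr13:119690101-119690350, plus strand): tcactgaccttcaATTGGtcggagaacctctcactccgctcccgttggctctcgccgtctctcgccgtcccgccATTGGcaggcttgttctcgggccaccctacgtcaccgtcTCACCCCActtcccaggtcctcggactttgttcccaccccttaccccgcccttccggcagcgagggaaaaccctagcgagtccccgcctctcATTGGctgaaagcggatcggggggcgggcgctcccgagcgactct
Mvk (chr5:114444019-114444268, plus strand): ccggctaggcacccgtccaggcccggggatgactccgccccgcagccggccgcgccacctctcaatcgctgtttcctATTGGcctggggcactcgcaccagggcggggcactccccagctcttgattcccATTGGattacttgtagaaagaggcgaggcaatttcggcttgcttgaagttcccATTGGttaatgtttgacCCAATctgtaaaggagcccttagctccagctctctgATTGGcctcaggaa
Mvd (chr8:122443423-122443672, minus strand): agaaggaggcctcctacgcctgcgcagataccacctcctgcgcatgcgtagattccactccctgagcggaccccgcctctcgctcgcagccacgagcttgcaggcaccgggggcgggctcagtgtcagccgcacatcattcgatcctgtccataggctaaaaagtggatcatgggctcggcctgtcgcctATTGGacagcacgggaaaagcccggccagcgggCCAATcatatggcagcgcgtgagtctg
Acat2 (chr17:12960726-12960975, minus strand): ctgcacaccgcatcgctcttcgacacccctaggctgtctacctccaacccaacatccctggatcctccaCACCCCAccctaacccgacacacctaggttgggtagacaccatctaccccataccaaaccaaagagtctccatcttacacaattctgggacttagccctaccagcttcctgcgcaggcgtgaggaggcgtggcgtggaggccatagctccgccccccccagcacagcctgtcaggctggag

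Of the 6, Hmgcs1 alone held the looser sterol element, at position -137 from the start, and its exact form at -136 is part of the same match. Of all 32851 promoter windows, 4.36% hold the looser and 7.62% the exact form. Acat2 holds the exact form at position -181. CCAAT was found 4 times in the Hmgcs1 window (1 of them after the start site), 5 times in that of Mvk, 2 times each in those of Mvd and Idi1 and 1 time in that of Pmvk, and not in that of Acat2. Of all windows, 37.4% hold at least 1 CCAAT. The Sp1 motif occurs in 35.7% of all windows and in those of 5 members, all but Pmvk, and the E-box in 7.15% of all windows and in none of the 6. These matches are letters in a window and were not tied to any measured binding. The RefSeq start of Hmgcs1 lies 28 bases upstream of the GENCODE start used for gene coordinates below.

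Values are the authors' normalized signal, which estimates reads per gene after a scaling whose method is not given in the sources used here. Library totals ran from 3917430 to 4385050, and the spacing of low values put the depth behind them at about 3231650 to 5459830 reads. That depth is a rough figure, since only 7.20% to 13.3% of values under 100 lay on whole multiples of the spacing. Values between 0 and 5 do not occur in the table, so a gene listed at 0 may stand for a low estimate. Libraries differed in ways the groups did not fully follow. Genes with a longest coding transcript under 1000 nt took 7.40% to 10.4% of the signal in acLDL libraries 2, 3 and 4, against 18.1% in acLDL library 1 and 12.2% to 17.1% in controls. Over tested genes, acLDL library 1 resembled control library 3 most (Spearman 0.95), while control library 1 resembled acLDL library 4 most (0.89). Values of the members are therefore also given without acLDL libraries 2 and 3 together, without acLDL library 1 and without control library 1, where these differ.

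All 8 members passed the low-value filter, with at least 10 in at least 4 libraries, as did 10091 genes in all. No member passed limma's threshold of an adjusted p of 0.05 over all tested genes, and neither did any other gene (0.00% called in each direction; at an unadjusted p under 0.05, 8.93% of tested genes were lower and 7.42% higher). By mean log2 value 7 members were lower with acLDL and 1, Acat2, was higher, where 55.7% of all tested genes had a lower mean. Their median log2 fold change, on log2(signal + 5) as acLDL minus control, was -0.85, beside -0.13 for all tested genes. For 3 members, Hmgcs1, Mvd and Fdps, every acLDL library lay below every control, which held for 2.20% of tested genes. At an unadjusted limma p under 0.05 the same 3 members were found, all lower.

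**Figure D1:**
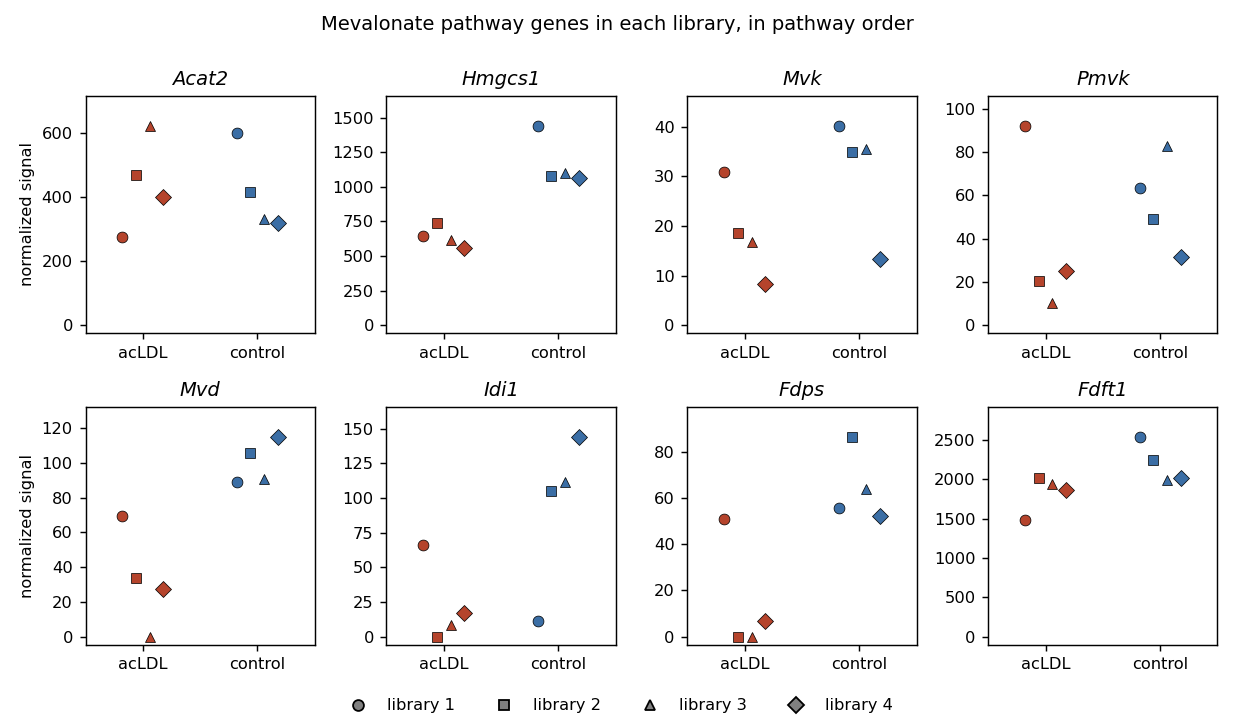
Normalized signal of each of the 8 members (vertical axes, linear, each starting near 0) in the 4 acLDL and 4 control libraries, with marker shape giving the library number. Hmgcs1, Mvd and Fdps separate the groups, with Hmgcs1 at 558 to 741 in acLDL and 1062 to 1442 in control libraries.

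The pathway opens with thiolase, encoded by Acat2 (chromosome 17, 12942890 to 12960747, minus strand, GRCm38), which joins acetyl-CoA molecules to acetoacetyl-CoA in the cytosol. Acat2 had a signal of 276, 469, 624 and 402 in acLDL libraries 1 to 4, against 602, 416, 332 and 319 in control libraries 1 to 4. The groups overlapped throughout, the highest values being those of acLDL library 3 and control library 1. Its log2 fold change was 0.07 (SE 0.30), with limma's adjusted p = 0.90. It turned to -0.27 without acLDL libraries 2 and 3 and was 0.28 without acLDL library 1, so no direction can be given for this step.

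Acat2 stands 2290 bases from Acat3, a paralog with which it shares 50.5% of the 31-base words of its longest coding transcript, though none in its last 400 bases. Acat3 measured 1850.4, 7641, 8381 and 5492 in acLDL libraries and 3319.9, 1741, 1436 and 1449 in control libraries, a log2 fold change of 1.44 (SE 0.49, limma's adjusted p = 0.298). Its 3′ part overlaps by 1255 bases that of Tcp1, a chaperonin subunit gene on the opposite strand, whose signal of 292, 26.1, 19.1 and 71.9 with acLDL and 48.9, 146, 291 and 268 in controls ran opposite to that of Acat3. Whether the authors' counting used strand is not given in the sources used here, nor how reads from shared stretches were divided, so within that overlap reads of Acat3 and Tcp1 cannot be told apart unless strand was used, and the split between Acat2 and Acat3 is uncertain.

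HMG-CoA synthase, encoded by Hmgcs1 (chromosome 13, 119690379 to 119708260, plus strand), adds a further acetyl-CoA. It showed the clearest separation of the 8. Hmgcs1 had a signal of 644, 741, 617 and 558 in acLDL libraries, against 1442, 1078, 1097 and 1062 in control libraries. The acLDL libraries lay within a narrow range and below all controls, and control library 1 lay well above the other controls. By the rough depth above, these values would rest on about 566 to 778 reads with acLDL and 965 to 1398 in controls. Reads themselves could not be recovered. The log2 fold change was -0.86 (SE 0.18), with limma's adjusted p = 0.298, and Hmgcs1 had the 15th smallest p of all tested genes.

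The size of the Hmgcs1 difference hardly depended on which libraries entered. It was -0.95 (SE 0.23) without acLDL libraries 2 and 3, with limma's adjusted p = 0.99. Without acLDL library 1 it was -0.87 (SE 0.19), where limma's adjusted p was 0.026. In that fit 2190 of 10091 tested genes passed the threshold, 1455 of them lower. Without control library 1, the highest, the Hmgcs1 difference was -0.76 (SE 0.18). Its longest coding transcript has 3464 nt, close to the median of 3179 nt for tested genes. An index of short transcripts, the mean log2 deviation per library over 489 genes under 1000 nt, was entered as a covariate, and the log2 fold change was then -0.94 (SE 0.19). No other gene shares words with the last 400 bases of the Hmgcs1 transcript. Its neighbour Nim1k, 1834 bases away, had 58.6 to 104 in acLDL and 26.6 to 154 in control libraries. The antisense gene Gm48342, not in the table, covers 14.6% of its words further upstream.

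Mevalonate is next phosphorylated by 2 kinases in turn and then decarboxylated. Mevalonate kinase, Mvk (chromosome 5, 114444269 to 114460591, plus strand), was near the lower end of the table, with 30.8, 18.5, 16.8 and 8.35 in acLDL libraries and 40.2, 34.9, 35.5 and 13.4 in control libraries. The groups overlapped, since control library 4 lay below 3 of the 4 acLDL libraries. The difference on the log2 scale was -0.61 (SE 0.46), at an adjusted p of 0.43 by limma. It was -0.84 (SE 0.47) without acLDL library 1, -0.48 (SE 0.52) without control library 1, and over the 8 libraries left out in turn lay between -0.91, without control library 4, and -0.37, without acLDL library 4. The start of Mvk lies 209 bases from that of Mmab, a gene of vitamin B12 metabolism that is read in the opposite direction. Mmab had 7.18, 13.1, 30.6 and 13.1 in acLDL libraries and 22.2, 13.7, 17.8 and 9.68 in control libraries, which overlapped, with a log2 fold change of -0.06 (SE 0.46, limma's adjusted p = 0.94).

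Phosphomevalonate kinase, Pmvk (chromosome 3, 89454541 to 89469013, plus strand), had 92.3, 20.6, 10.2 and 25.0 in acLDL libraries, against 63.6, 48.9, 83.0 and 31.4 in control libraries. In acLDL library 1 it stood above every control, and in the other 3 acLDL libraries below every control. The log2 fold change was -0.85 (SE 0.58), with limma's adjusted p = 0.39, and it shrank to -0.12 without acLDL libraries 2 and 3. Without acLDL library 1 it was -1.37 (SE 0.44), where limma gave an adjusted p of 0.055, without acLDL library 3 -0.48, and without control library 1 -0.77 (SE 0.66). With the short-transcript index it was 0.12 (SE 0.46). Pmvk has the shortest longest coding transcript among the members, at 1194 nt. Pbxip1, 3589 bases from Pmvk, overlapped between groups, with 196 to 350.2 in acLDL and 171 to 329.9 in control libraries.

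Mevalonate diphosphate decarboxylase, Mvd (chromosome 8, 122433601 to 122443422, minus strand), yields isopentenyl diphosphate, the first isoprenoid unit. It measured 69.4, 33.6, 0 and 27.2 in acLDL libraries and 88.8, 105, 90.9 and 115 in control libraries. No acLDL library reached the lowest control, and acLDL library 3 was listed at 0. The log2 fold change was -2.00 (SE 0.73), with limma's adjusted p = 0.298, and its size depends on the pseudocount because of the listed 0. Without acLDL libraries 2 and 3 it was -1.09 (SE 0.41, limma's adjusted p = 0.99), and with the short-transcript index -0.73 (SE 0.57). Without acLDL library 1 it was -2.51 (SE 0.67, limma's adjusted p = 0.037). In that fit 1455 of 10091 tested genes passed as lower. The Mvd transcript of 1756 nt shares no 31-base word with any other gene. Among its neighbours, Cyba, 671 bases away on the same strand and encoding a subunit of the phagocyte oxidase, had 1391, 82.5, 14.88 and 482 in acLDL libraries, against 718 to 1153 in control libraries (log2 fold change -2.43, SE 1.13). The lincRNA gene Gm20735, 1846 bases away, had 73.5, 262, 251 and 157 in acLDL libraries, against 47.8 to 95.4 in control libraries (1.25, SE 0.42). Neither passed the threshold, and the groups of each gene overlapped through acLDL library 1.

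**Figure D2:**
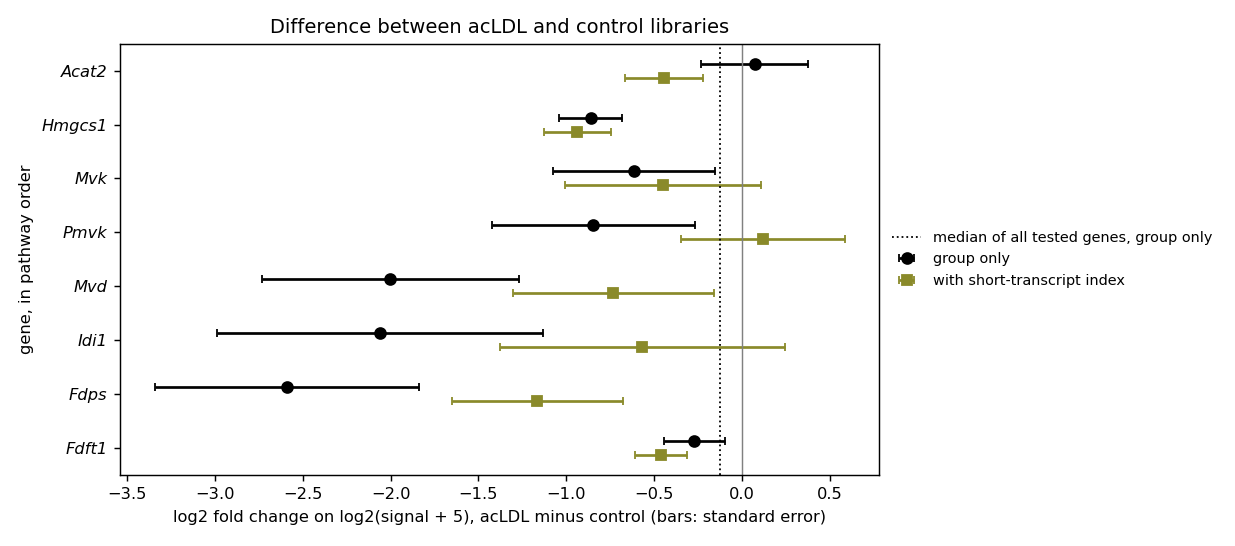
Log2 fold change of each member, acLDL minus control on log2(signal + 5), with limma's standard error, from the fit with the group alone (circles) and with the short-transcript index as covariate (squares); the dotted line is the median of all tested genes (-0.13). Hmgcs1 stood at -0.86 and -0.94, while Fdps stood at -1.17 with the index, against -2.59 without it.

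Isopentenyl diphosphate isomerase, Idi1 (chromosome 13, 8885501 to 8892451, plus strand), makes the reactive isomer that starts chain building. Its signal was 65.9, 0, 8.42 and 16.9 in acLDL libraries, against 11.5, 105, 111 and 144 in control libraries. The groups overlapped only through control library 1, which lay below 2 acLDL libraries. The log2 fold change was -2.06 (SE 0.93), with limma's adjusted p = 0.298. Without acLDL libraries 2 and 3 it was -0.93 (SE 0.96) and without acLDL library 1 -2.72 (SE 0.85), where limma gave an adjusted p of 0.052. Without control library 1 it was -2.79 (SE 0.81). Fitted with the index it was -0.57 (SE 0.81); the longest coding transcript of Idi1 has 3027 nt. Same-strand copies elsewhere share 22.4% of its 31-base words, none in its last 400 bases.

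Farnesyl diphosphate synthase, Fdps (chromosome 3, 89093588 to 89101959, minus strand), condenses the units into the branch point of the pathway. Fdps measured 51.1, 0, 0 and 6.94 in acLDL libraries and 55.6, 86.7, 64.1 and 52.3 in control libraries. All acLDL libraries lay below all controls, but acLDL library 1 came close to the lowest control, control library 4. The log2 fold change was the lowest of the 8 at -2.59 (SE 0.75), with limma's adjusted p = 0.298. It was -1.40 (SE 0.63, limma's adjusted p = 0.99) without acLDL libraries 2 and 3 and -1.17 (SE 0.49) with the short-transcript index. Without acLDL library 1 it was -3.36 (SE 0.47, limma's adjusted p = 0.022). In that fit 1455 of 10091 tested genes passed as lower.

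Much of the Fdps sequence is found elsewhere too. Other annotated genes hold 89.7% of the 31-base words of its longest coding transcript of 1382 nt and 79.7% of those in its last 400 bases. Among them, Gm43738, which covers most of the same locus, shares 79.0%, and Gm3571 shares 51.5%. How reads were divided among these copies is not given in the sources used here, so the level of Fdps is uncertain. Its downstream neighbour Rusc1 had 46.4 to 71.9 in acLDL and 45.4 to 105 in control libraries, with a log2 fold change of -0.02 (SE 0.33).

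Squalene synthase, Fdft1 (chromosome 14, 63145150 to 63179578, minus strand), joins farnesyl diphosphate molecules head to head and commits them to sterols. Fdft1 had a signal of 1478, 2022, 1938 and 1866 in acLDL libraries, against 2541, 2251, 1994 and 2013 in control libraries. Only acLDL library 2 reached into the range of the controls, and the lowest value was that of acLDL library 1. The difference on the log2 scale was -0.27 (SE 0.17), at an adjusted p of 0.37 by limma. It was -0.40 (SE 0.22) without acLDL libraries 2 and 3 and -0.46 (SE 0.15) with the short-transcript index. Without acLDL library 1 it shrank to -0.17 (SE 0.15) and without control library 1 to -0.20 (SE 0.19).

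The Fdft1 value has a limit of its own. Fdft1 overlaps by 774 bases Ctsb, the gene of the lysosomal protease cathepsin B, on the opposite strand, and all 31-base words in the last 400 bases of its transcript occur, reversed, in Ctsb. Libraries of this kit read the 3′ end, which is where the overlap lies. Ctsb measured 11936, 11925, 12796 and 11848 in acLDL libraries and 14638, 12614, 13272 and 13225 in control libraries. Reads of Fdft1 and Ctsb there cannot be told apart unless strand was used.

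**Figure D3:**
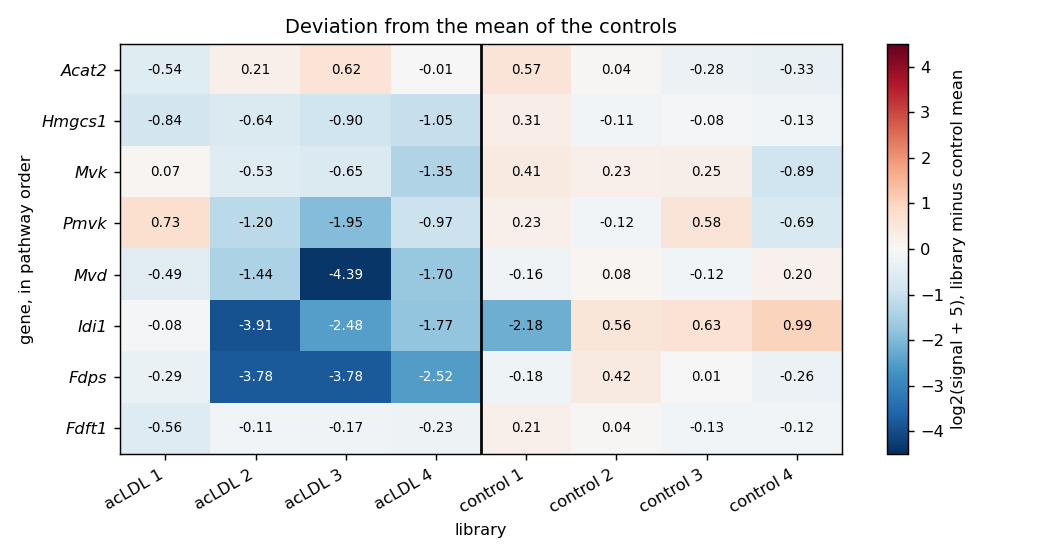
Each member's log2(signal + 5) in each library, minus its mean over the 4 controls. The Hmgcs1 row runs from -1.05 to -0.64 in acLDL libraries, while Mvd, Idi1 and Fdps lie lowest in acLDL libraries 2, 3 and 4, and Idi1 also stands at -2.18 in control library 1.

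Library by library, 5 members lay below the lowest control in acLDL library 1, against 12.6% of all tested genes, and 5, 6 and 6 did so in acLDL libraries 2, 3 and 4, against 33.9%, 34.9% and 28.3%. In acLDL library 1 these were Acat2, Hmgcs1, Mvd, Fdps and Fdft1. The median of the members, as deviation from the mean of the controls, was -0.39, -0.92, -1.43 and -1.20 in acLDL libraries 1 to 4, and 0.22, 0.06, -0.03 and -0.19 in control libraries 1 to 4. The same median over all tested genes stayed between -0.14 and 0.12 in acLDL libraries and between -0.03 and 0.09 in control libraries. Controls differed among themselves too, as control library 4 held 5 members below the other 3 controls, where 21.5% of all tested genes lay so.

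Setting each acLDL library beside the control it resembled most gave like directions, as values of those libraries with no test. Against control library 3, acLDL library 1 was lower in 7 of 8 members, with a median log2 difference of -0.33, where 48.8% of all tested genes were lower and their median was 0.01. Hmgcs1 differed by -0.76, a value below which 8.48% of tested genes lay, Idi1 by -0.71, Fdft1 by -0.43, Mvd by -0.36, Fdps by -0.30, Acat2 by -0.26 and Mvk by -0.18, while Pmvk stood at 0.14. Control library 1 was the closest to the other 3 acLDL libraries, which therefore share it. That control held 4 members above all other controls (Acat2, Hmgcs1, Mvk and Fdft1), where 29.9% of all tested genes lay so. It held 2 below them (Mvd and Idi1), where 35.8% lay so. Against control library 1, 8, 7 and 7 members were lower in acLDL libraries 2, 3 and 4. Of all tested genes 52.6%, 51.4% and 52.8% were lower there. The exceptions were Acat2 in acLDL library 3 (0.05) and Idi1 in acLDL library 4 (0.41).

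**Figure D4:**
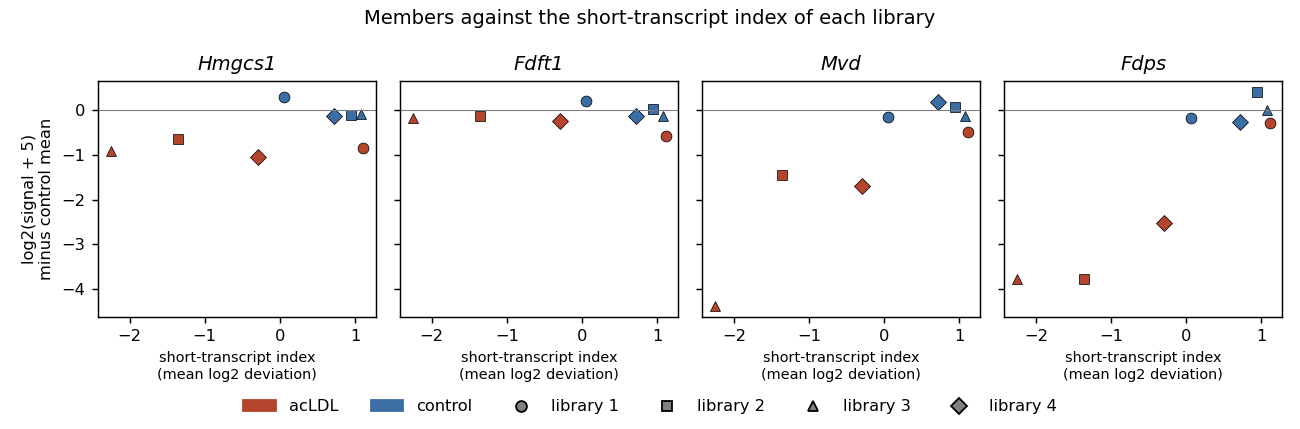
Deviation of Hmgcs1, Fdft1, Mvd and Fdps from their control mean (vertical axis, log2) against the short-transcript index of each library (horizontal axis, mean log2 deviation over 489 genes). Mvd and Fdps lie lowest in the libraries with the lowest index, while Hmgcs1 lies between -1.05 and -0.64 in acLDL libraries at indices from -2.25 to 1.11.

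The short-transcript index itself was 1.11, -1.36, -2.25 and -0.30 in acLDL libraries 1 to 4, against 0.06, 0.94, 1.08 and 0.72 in control libraries 1 to 4. It thus moves with the group in 3 of 4 acLDL libraries. Its part in the results for Mvd, Idi1, Fdps and Pmvk was not tested beyond the fit that holds it as a covariate, in which the median of the members was -0.52 and that of all tested genes 0.01. In that fit 7 members had a negative value, Acat2 now among them at -0.45 (SE 0.22), and Pmvk was the exception. None passed limma's threshold there (adjusted p of 0.84 or more for each).

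Ratios between successive members of the list, which are not all successive steps, were taken within each library. If each library was scaled by a single factor, such ratios do not depend on it, apart from the pseudocount. Of the 7 ratios of a member to the one before it, 1 separated the groups. No share over all genes was computed for such ratios. That ratio sets Hmgcs1, which separates the groups by itself, over Acat2, which had no clear direction. The log2 ratio of Hmgcs1 to Acat2, on signal + 5, was 1.21, 0.65, -0.02 and 0.47 in acLDL libraries and 1.25, 1.36, 1.71 and 1.72 in control libraries. The gap between acLDL library 1 and control library 1 was narrow, and the mean difference was -0.93. Fdft1 over Fdps was 4.73, 8.66, 8.60 and 7.29 in acLDL libraries, above the controls at 5.39, 4.62, 4.86 and 5.14 except in acLDL library 1. The other 5 ratios overlapped widely. Set against Hmgcs1, Fdft1 also separated the groups, with a log2 ratio of 1.19 to 1.73 in acLDL and 0.81 to 1.06 in control libraries. The ratios of Mvk, Pmvk, Mvd, Idi1 and Fdps to Hmgcs1 overlapped between the groups. Hmgcs1 separates the groups by itself, so a steadier gene set against it tends to do so too. The share of all genes that do so was not computed. The Fdft1 signal keeps its limit here, the overlap with Ctsb at the 3′ end.

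**Figure D5:**
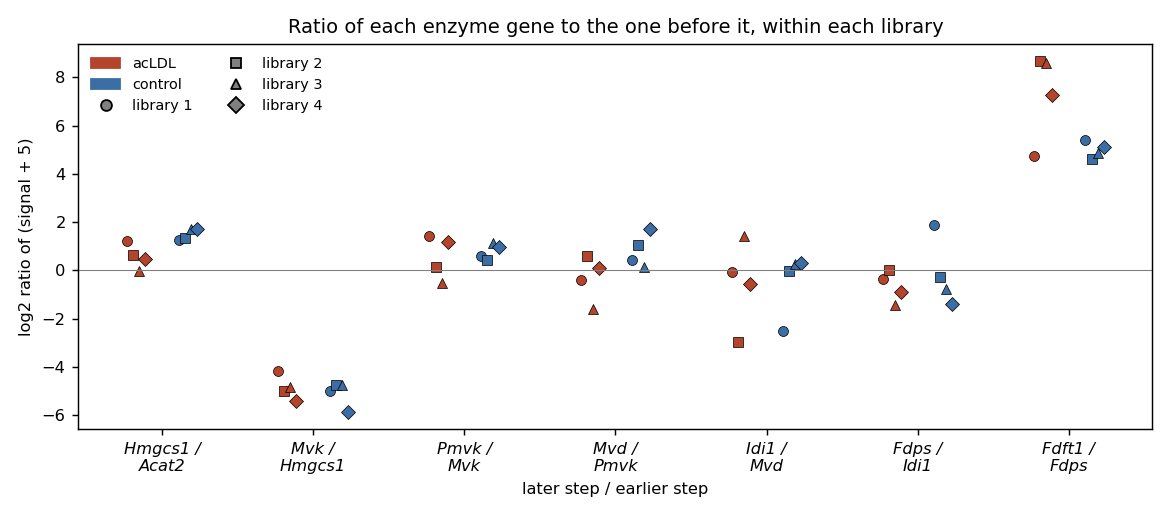
Log2 ratio of each member to the one before it in the pathway, within each library (signal + 5), for acLDL and control libraries. Hmgcs1 over Acat2 separates the groups, at -0.02 to 1.21 in acLDL and 1.25 to 1.72 in control libraries, and the other ratios overlap.

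Genes past squalene mostly had lower means as well. Of 11 listed enzymes of that stretch, 9 were tested, 8 had a lower and 1 a higher mean, 0 passed limma's threshold, and 7 had an unadjusted p under 0.05, all lower (background 8.93%). In 4 of them the groups did not overlap (background 2.20%). Their median log2 fold change was -1.20, and -0.73 with the short-transcript index. Sqle, squalene epoxidase, had 71.6, 14.95, 18.2 and 24.3 in acLDL libraries and 79.0, 118, 140.0 and 123 in control libraries. Sc5d, a desaturase near the end of the route, had 94.8, 115, 79.3 and 132 with acLDL and 169, 256, 206 and 166 in controls. Like those of Hmgcs1, the groups of Sqle and Sc5d did not overlap.

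Of 9 tested genes that control the pathway or take up lipoprotein, 7 had a lower and 2 a higher mean. Their median was -0.63, and -0.33 with the index. None passed limma's threshold and 4 had an unadjusted p under 0.05, all lower (background 8.93%). Srebf2, which encodes SREBP2, had 192, 97.7, 46.9 and 78.4 in acLDL libraries and 193, 197, 256 and 205 in control libraries, so that acLDL library 1 all but met control library 1. Insig1, which retains the SREBP complex, had 26.3, 37.2, 22.0 and 39.4 with acLDL and 52.3, 103, 93.1 and 37.7 in controls, with an overlap by control library 4.

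The branches that draw on farnesyl diphosphate for other uses were near the level of all genes. Of 16 tested genes of prenylation, dolichol and ubiquinone synthesis, 9 had a lower and 7 a higher mean, with a median of -0.12 beside -0.13 for all tested genes; with the index it was 0.12. None passed limma's threshold and 1, Rce1, had an unadjusted p under 0.05, with a lower mean (background 8.93%). Rce1, the protease that trims prenylated proteins, was listed at 36.0, 0, 0 and 6.56 with acLDL and 21.4, 42.7, 18.3 and 32.9 in controls. Fnta encodes an alpha subunit shared by some of the prenyl transferases. Its signal was higher in every acLDL library, at 392, 543, 393 and 362, than in controls at 343, 325, 322 and 305 (background 3.44% for that direction). Dpm1, which makes dolichol phosphate mannose, had 659.7, 950.0, 642 and 719 with acLDL and 373, 638, 661 and 559 in controls.

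Genes that supply acetyl-CoA or handle ketone bodies had a median of -0.88 over 10 tested, with 7 lower and 3 higher means, and of -0.10 with the short-transcript index. None passed limma's threshold and 2 had an unadjusted p under 0.05, both lower (background 8.93%). Acss2, which activates acetate, had 19.1, 0, 0 and 44.5 with acLDL and 73.4, 36.8, 42.6 and 117 in controls. The mitochondrial citrate carrier gene Slc25a1 had 36.1, 12.1, 12.7 and 11.0 with acLDL and 43.2, 44.1, 23.7 and 26.3 in controls.

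The genes whose log2 values over the 8 libraries were most like the mean profile of the members were Vamp3, Hmgb2, Nxf1, H2ac24 and Gm12744, with Pearson's r of 0.98 to 0.99. This likeness is a description over 8 libraries that share the library differences described above. Each member is itself part of that mean profile, and members of wide spread weigh most in it. The within-group SD on the log2 scale was 1.18 for Fdps, against 0.19 for Hmgcs1 and 0.18 for Fdft1. The members' own r with the profile is therefore fixed in part by their spread. It was 0.99 for Fdps, 0.89 for Mvd, 0.86 for Pmvk, 0.79 for Idi1 and 0.75 for Hmgcs1. For Mvk it was 0.66, for Fdft1 0.21 and for Acat2 -0.50. Hmgb2, a chromatin protein gene, had 188, 15.9, 13.1 and 35.3 in acLDL libraries and 205, 285, 209 and 164 in control libraries, with acLDL library 1 among the controls.

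Some cell markers were low in acLDL libraries 2, 3 and 4, several of them also in control library 1, and others were not. Itgax, the gene of CD11c, had 189, 10.004, 0 and 42.7 in acLDL libraries and 81.5, 182, 195 and 172 in control libraries, so the sorting marker was listed at 0 in acLDL library 3. All 14 listed dendritic cell and macrophage markers were in the table; 8 had a lower and 6 a higher mean, with a median log2 fold change of -0.71, and of 0.08 with the short-transcript index. None passed the threshold. Those with the lowest values were H2-Aa at -3.45, Ccr7 at -2.53, H2-Ab1 at -2.44, Itgax at -2.42, Adgre1 at -2.04 and Cd74 at -1.86, while Fcgr1 stood at 0.69, Csf1r at 0.65 and H2-Eb1 at 0.61. Control library 1 was the lowest control for Cd74 and Ccr7, at 830 and 96.9, beside 793 and 77.5 in acLDL library 4. H2-Aa, an MHC class II gene, had 6232, 49.5, 29.4 and 1683 in acLDL libraries and 1610, 6119, 6463 and 4430 in control libraries. H2-Eb1, of the same class, had 23144, 39629, 44279 and 31147 in acLDL libraries and 18386 to 26611 in controls. The summed signal of the 14 was 48318 to 65658 with acLDL and 41602 to 45294 in controls.

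Of 10 granulocyte markers 9 were in the table; 7 had a lower and 2 a higher mean, with a median of -1.45, and of -0.03 with the index. S100a8 had 6019, 303, 36.3 and 1695 in acLDL libraries and 2757 to 6778 in controls, and Ngp had 674, 11.8, 0 and 113 with acLDL and 249 to 971 in controls. Mmp8 had 7230 to 9125 with acLDL and 6269 to 7757 in controls (log2 fold change 0.15), and Ltf had 144 to 224 with acLDL and 106 to 185 in controls (0.31). The summed signal of the 9 was 8402 to 18098 with acLDL and 11399 to 20294 in controls.

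Of the erythroid markers 1 of 7 was in the table, Hbb-bs, at 54.1, 189.7, 65.0 and 79.2 in acLDL libraries and 164 to 1429 in controls, so that its lowest value was in acLDL library 1. Lymphocyte markers, 3 of 8 in the table, summed to 61.6 to 95.1 with acLDL and 19.9 to 40.8 in controls, with Cd8a at 30.96, 18.3, 57.1 and 30.9 in acLDL libraries, all above the controls at 0 to 16.8. Cd79a had 19.3 to 39.3 with acLDL and 0 to 19.8 in controls, and Ms4a1 had 0 to 37.5 with acLDL and 0 to 19.9 in controls. Of 6 stromal markers Sparc alone was in the table, at 17.4 to 111 with acLDL and 12.2 to 24.7 in controls. The part of these markers in the values of the members was not tested. In these bulk libraries fewer cells of a type and less RNA per cell cannot be told apart.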

How the data were processed

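RNA of 8 libraries was measured with a kit that reads the 3′ end of poly(A) messages, per the labels' protocols (the series' own design text has the 5′ end instead). The tools were bcl2fastq 2.20 and kallisto, with mm10, per the submitters' processing notes; annotation, normalization tool, filters and strand use: not given in the sources used here. In the deposited table are the authors' normalized signal values per gene, not whole reads although it is named as raw: the smallest value above 0 was 5.00, and 7.20% to 13.3% of values under 100 lay on whole multiples of a library step (tolerance 0.01 steps), so reads could not be recovered. No counting interval was computed.

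Genes with at least 10 in at least 4 libraries were tested with limma 3.58.1 (R 4.3.3) on log2(signal + 5), with a variance trend, robust moderation and the group as the only term, and with Benjamini-Hochberg adjustment over all tested genes. A fold change on this scale understates changes of low genes. The fit was tested on simulated data with independent noise for each gene and library. Those data lack the library-wide differences seen here, so the test does not show how the fit behaves under them. Percentages of called genes are over all tested genes. Motif, word-sharing and ratio counts used Python 3.11.15, RefSeq promoters and GENCODE mouse release 21 (GRCm38), which gave a coding transcript length for 89.1% of tested genes.

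Members, lists and alternatives were chosen with earlier results of these data known. Named genes are the members, up to 3 genes of smallest p from each list, tested neighbours within 5000 bases, Acat3 as a paralog, and the 5 genes most like the members' mean profile; some genes under this rule are not reported here. Cyba, Gm20735 and Nim1k, neighbours outside the list, and further cell markers beyond the 3 of smallest p were named after their values were seen. Setting each acLDL library beside its closest control was added after the data were seen. Alternatives were other scalings, pseudocounts and filters, a replicate block, leaving out libraries, the short-transcript covariate and array weights.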

Additional observations from a re-analysis of the deposited data

Results flagged for a closer look

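In 2 of the 16 groups of 4 library values (8 members in 2 groups), an end value lay far from the others by Dixon's criterion; chance gives about 1 in 20. Hmgcs1 in control library 1 was at 1442, with the next control at 1097. Fdps in acLDL library 1 was at 51.1, with the next acLDL library at 6.94.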

How the results depend on the processing

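Of the members, Hmgcs1 and Fdft1 kept a lower mean in all 18 alternatives, and Mvk, Mvd, Idi1 and Fdps in all 17 that tested them; Hmgcs1 ranged from -0.95 to -0.76. Acat2 turned lower without acLDL libraries 2 and 3 (-0.27) and with the short-transcript index (-0.45), and ran from -0.11 to 0.28 when libraries were left out in turn. Pmvk turned higher with the index (0.12). Over all genes, 0 passed in most alternatives; 655 higher and 1302 lower passed with array weights, 1 lower with quantile normalization, and 0 to 735 higher and 0 to 1455 lower when libraries were left out in turn, the upper ends both without acLDL library 1. Among the 8 members, 4 passed with array weights, all lower, at Hmgcs1 -0.86, Mvd -1.89, Idi1 -2.65 and Fdps -2.78. Lower calls in that fit numbered 1302 of 10091 tested genes. When libraries were left out in turn, 0 to 3 members passed. The 3 passed without acLDL library 1, where 1455 of 10091 tested genes were called lower. Left-out values ran from -0.93 to -0.76 for Hmgcs1, -2.51 to -1.21 for Mvd and -3.36 to -2.19 for Fdps. With at least 10 required in all 8 libraries, 4 members were tested and 3 were lower. The log2 ratio of Fdft1 to Fdps differed by 3.57 with a pseudocount of 1 and 1.23 with 20, against 2.32 with 5, as Fdps is listed at 0 in 2 libraries; the Fdps fold change itself was -3.84 with 1 and -1.50 with 20. Scaling moved the median of all genes from -0.13 to 0.15 with quantile normalization, where that of the members was -0.64. With the replicate block no member or other gene passed, and the medians were unchanged at -0.85 and -0.13. At an unadjusted limma p under 0.05 there were 730 genes with the block and 1650 without it. Same-numbered libraries correlated between -0.55 and 0.03 in their deviations. Library-wide differences enter these deviations, so they cannot show whether the numbers pair the libraries. With signals under 150 in every library, Mvk, Pmvk, Mvd, Idi1 and Fdps rest on few reads.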
